A study of Mus musculus with 6 samples.

Results

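DNA methylation was examined at 10 genes of the oligodendrocyte lineage in the adult dentate gyrus. The genes were 5 that code for myelin proteins (Mbp, Mog, Mag, Cnp and Mobp) and 5 that code for transcription factors (Sox10, Olig1, Olig2, Nkx2-2 and Nkx6-2). A site, which is a cytosine on one strand, was assigned to a gene when it lay between 1 kb upstream of the gene start and the gene end in GENCODE M21, read in the direction of transcription. This gave 692 of the 890041 sites in the table, on 575 CpGs, and every gene had at least 3 sites. Mobp had the fewest, with 7 sites, followed by Mog with 8 and Mag with 16, whereas Nkx2-2 had 256.

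The libraries came from 6 female C57BL/6JRj mice, 4.5 months old. Of these, 3 had lived for about 3 months, from an age of 6 weeks, in an enriched environment (ENR) and 3 in standard cages (STD), and 1 reduced representation bisulfite sequencing (RRBS) library was made from the dissected dentate gyrus of each. ENR mice shared 1 large enclosure and STD mice lived 5 to a cage, so enrichment and enclosure cannot be told apart. The tissue was bulk, so a different share of a cell type and a different methylation level within its cells cannot be told apart, and the table holds no RNA level by which the cell types could be checked. The value at a site is the percent of reads that were methylated. Read numbers were not used here, so the depth at a site is unknown beyond the minimum of 10 reads that the authors required. The mean over all sites was 23.7% ± 0.989 (SD, n = 3) in STD and 23.2% ± 1.58 in ENR, and the lowest libraries were ENR replicate 3 (21.3%) and STD replicate 3 (22.5%).

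Oligodendrocytes wrap axons in myelin, a stack of compacted membrane that speeds conduction and feeds the axon. Their precursors persist in the adult brain and mature when Olig2, Sox10 and Nkx2-2, together with later factors, switch on the genes for myelin proteins. Cytosine methylation at CpGs is usually absent from CpG-dense sequence at gene starts and high in sparse CpGs elsewhere. RRBS cuts DNA at CCGG and therefore reads mostly the dense sequence, and 690 of the 692 sites lay within 75 bp of a CCGG. It covered between 1.502% (Mobp) and 37.1% (Nkx6-2) of the CpGs in the windows of the genes.

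The following 4 stretches are shown because they carry the contrasts described below. They are an unmethylated coding sequence, a methylated coding sequence, 3 of the 4 covered intronic CpGs of the gene with the largest difference, and an upstream run in which ENR was lower. Each is written 5′ to 3′ on the strand of its gene (GRCm38/mm10), and capitals mark the CpGs with a value in the table.
Olig2, coding exon, chr16:91226940-91227049, plus strand: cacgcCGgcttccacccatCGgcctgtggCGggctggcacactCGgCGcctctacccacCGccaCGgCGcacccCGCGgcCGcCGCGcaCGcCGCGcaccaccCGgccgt
Mog, coding exon, chr17:37020560-37020688, minus strand: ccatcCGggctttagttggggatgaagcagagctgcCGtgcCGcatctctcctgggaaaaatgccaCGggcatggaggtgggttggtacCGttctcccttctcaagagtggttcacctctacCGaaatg
Mobp, intron, chr9:120170520-120170611, plus strand: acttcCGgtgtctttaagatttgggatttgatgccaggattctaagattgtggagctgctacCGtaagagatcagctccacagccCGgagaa
Nkx6-2, upstream, chr7:139583692-139583753, minus strand: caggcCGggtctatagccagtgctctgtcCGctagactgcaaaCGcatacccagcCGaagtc
The Olig2 stretch holds 19 CpGs in 110 bases, of which 17 had a value, and it averaged 0.860% in STD and 1.04% in ENR. The Mog stretch holds 6 CpGs in 129 bases and averaged 84.9% and 81.8%. The Mobp stretch holds 3 CpGs in 92 bases and averaged 96.4% and 85.9%. The other covered intronic CpG of Mobp, at 120170407, lies outside the stretch, and with it the 4 intronic sites averaged 89.4% and 77.9%. The Nkx6-2 stretch holds 4 CpGs in 62 bases and averaged 25.6% and 13.5%.

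The first question was how the 10 genes differed in methylation, whatever the housing. The gene means over all 6 libraries ran from 84.1% for Mog, 79.4% for Mobp and 73.7% for Mag, through 18.7% for Sox10 and 17.1% for Mbp, to 7.05% for Cnp, 6.30% for Nkx2-2, 2.81% for Nkx6-2, 1.42% for Olig2 and 1.38% for Olig1. The ranges over the libraries separated Mag from Sox10, Mbp from Cnp and Nkx2-2 from Nkx6-2. The other neighbours in this order overlapped in range and were not ordered beyond the spread of the libraries. Among the 22955 genes with at least 3 sites, Mog stood at percentile 91.4 and Olig1 at percentile 11.5. The genes were not read at the same places. Mog and Mobp had no site within 1 kb of their gene start and Mag had 2 of 16, whereas Mbp had 54 of 113, Cnp 25 of 31, Olig2 15 of 67 and Olig1 all 35.

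**Figure D1:**
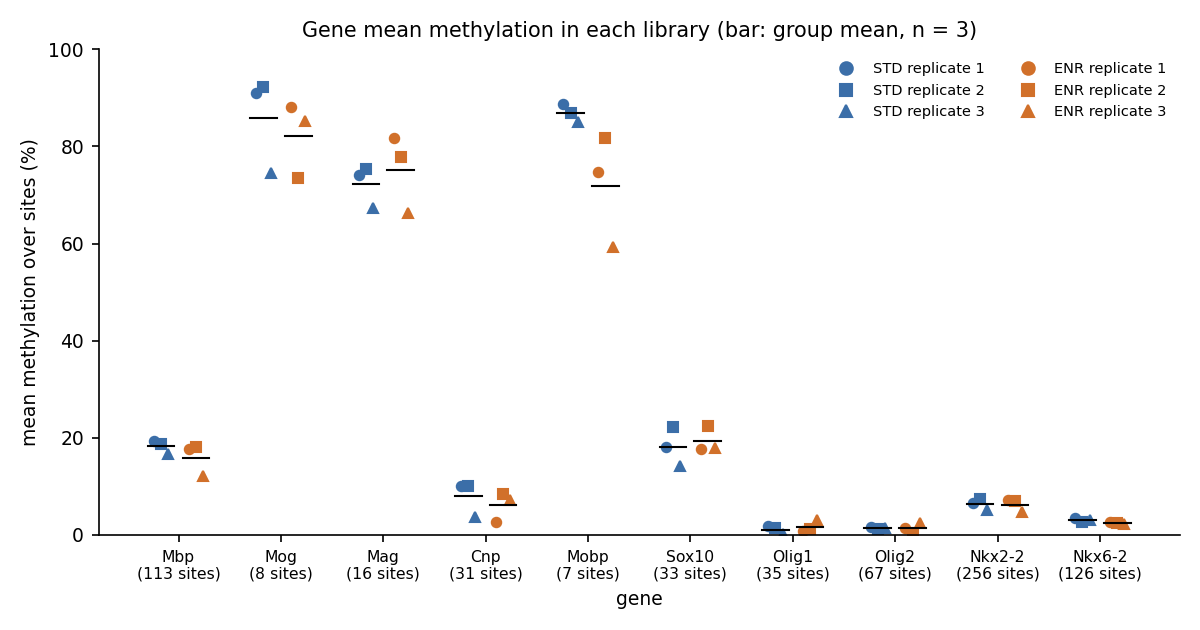
Mean methylation (%) over the covered sites of each gene in every library, with STD in blue, ENR in orange, a marker shape for each replicate number and a black bar for each group mean. Mog, Mobp and Mag lie above 59% in all 6 libraries and the other genes below 23%, and Mobp and Nkx6-2 are the genes in which every ENR library lies below every STD library.

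Most sites of the transcription factor genes had little methylation. Of their 517 sites, 86.7% had a mean under 10% and 0.193% had a mean over 80%, but Nkx2-2 and Nkx6-2 hold most of these sites, and in Sox10 17 of 33 sites were under 10%. Of the 175 sites in myelin genes, 58.3% were under 10% and 15.4% over 80%, and over all sites of the table these shares were 63.7% and 15.5%. Local CpG density differed in the same way. A site counted as CpG-dense when G and C made up 50% or more of the sequence within 100 bp on either side and CpGs occurred at 0.6 times or more the number that its base content predicts. CpG-dense sites made up 80.1% of the factor sites and 37.1% of the myelin sites. Within the myelin genes, the 65 CpG-dense sites averaged 7.0% and the 110 others 37.3%, and within the factor genes the 414 CpG-dense sites averaged 2.82% and the 103 others 15.2%. These site means are a description, since sites of 1 gene share fragments and libraries.

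The main comparison was ENR against STD at each gene. The myelin gene means averaged 56.6%, 56.7% and 49.4% in the STD libraries and 52.9%, 51.8% and 46.0% in the ENR libraries, so the groups overlapped. The factor gene means averaged 6.33%, 6.98% and 4.78% in STD and 5.95%, 6.70% and 6.04% in ENR. Averaged over all 10 genes, ENR was lower by 1.89 percentage points (30.1% ± 2.63 in STD, 28.2% ± 1.93 in ENR), against -0.575 points over all genes. Without Mobp, a choice made after its values were seen, the difference was -0.433 points, and without ENR replicate 3 it was -0.779 points. The mean over all genes was also low in that library, at 22.5%, against 25.5% and 25.4% in ENR replicates 1 and 2. The background of -0.575 points therefore holds only with all libraries. At 7 of the 10 genes the ENR mean was lower, in a table in which 57.6% of the genes were lower in ENR.

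No gene passed the test. With limma, fitted over all 22934 genes that varied, none of the 10 had a Benjamini-Hochberg adjusted p under 0.05 (each about 1.00), and the share of all genes called was 0.00%. At an unadjusted p under 0.05, 1 of the 10 was found, Mobp, beside 3.86% of all genes. Groups did not overlap at 2 of the 10 genes, Mobp and Nkx6-2, both lower in ENR, and 8.46% of all genes had groups that did not overlap, 5.42% with ENR lower. With 3 against 3 mice, the exact permutation test cannot give a p under 0.1.

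At single sites the picture was the same. None of the 692 sites passed the limma test, in a table of which 0.00% passed, and the lowest adjusted p of any site was 0.852. The unadjusted p was under 0.05 at 17 of the member sites that varied (3.48%), against 2.68% of all sites tested. ENR was lower at 270 of the 692 sites (39.0%, against 37.2% of all sites) and higher at 218 (31.5%, against 31.9%). Groups did not overlap at 35 sites (5.06%), against 3.99% of all sites. ENR was the lower group at 22 of these (2.34% of all sites) and the higher at 13 (1.65% of all sites). The group means were more than 25 percentage points apart at 7 sites, which is 1.01% of the sites against a background of 1.94%. These shares are not matched for level. Of the member sites 79.5% had a mean under 10%, against 63.7% of all sites, and such sites cannot differ by 25 points. Of all sites with a mean of 20% to 80%, 14305 of 129689 were over 25 points apart. The share of member sites in that class was not computed. ENR was lower at 6 of the 7 sites, 1 each in Mbp, Mog, Mobp and Nkx2-2 and 2 in Nkx6-2. Lower differences of this size made up 1.23% of all sites. ENR was higher at 1, in Sox10 (background 0.706%). This split was not stable. Without ENR replicate 3, 6 sites were lower and 11 higher, and with quantile normalization 4 were lower and 4 higher. The split over all sites moved in the same direction. Of all sites over 25 points apart, 63.6% were lower in ENR with all libraries, 39.3% without ENR replicate 3 and 55.2% with quantile normalization.

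**Figure D2:**
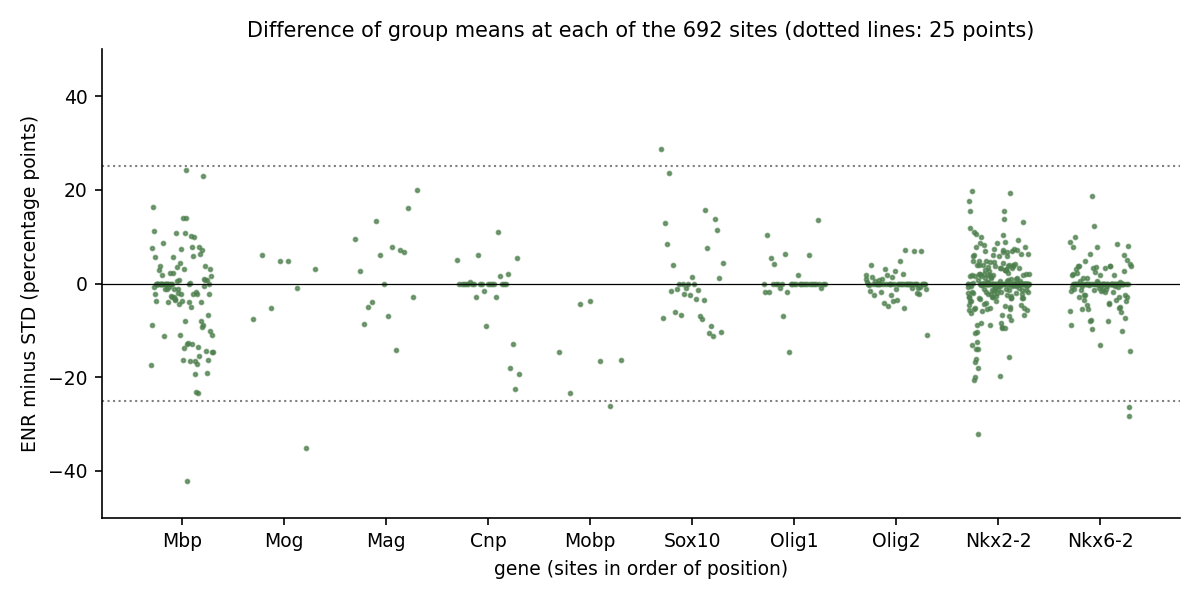
Difference of group means, ENR minus STD in percentage points, at each of the 692 sites, in order of position within each gene, with dotted lines at 25 points in each direction. Most points lie near 0, and 7 lie beyond the lines, 6 of them below and 1, in Sox10, above.

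Mobp codes for myelin-associated oligodendrocytic basic protein, which helps to compact the myelin sheath. The gene (ENSMUSG00000032517.16, chr9:120149707-120181484, plus strand) had 4 sites in an intron, 20700 to 20899 bp from the gene start, and 3 in an exon annotated as untranslated, 30957 to 31019 bp from it. The gene mean was 88.7%, 86.9% and 84.9% in the STD libraries and 74.6%, 81.7% and 59.3% in the ENR libraries. Every ENR library was below every STD library, and ENR replicate 3 was the lowest. The difference was -15.0 percentage points (SE 5.75, 95% interval -28.9 to -1.11; unadjusted limma p = 0.0382, adjusted p = 1.00; exact p = 0.1, two-sided). Without ENR replicate 3 it was -8.73 points, and 0.579% of all genes had a difference at least as far below 0 as that of Mobp over all libraries. That share counts genes of every level and number of sites, and a gene of low methylation cannot fall so far. The share was not computed for genes like Mobp in level and coverage.

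All 7 sites of Mobp had a lower mean in ENR, by 3.70 to 26.1 points, and at 2 of them the groups did not overlap. At the intronic cytosine 120170526 (the first CpG of the Mobp stretch above, read on the minus strand) methylation was 86.9%, 88.2% and 100% in STD and 84.4%, 73.4% and 47.4% in ENR. At 120180726, in the exon, it was 90.8%, 80.6% and 96.3% against 60.4%, 78.1% and 80%. These are the only sites of Mobp at which the groups were apart, the second chosen for that, and the gap between the nearest libraries was small at both.

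The largest difference in Mobp, -26.1 points, was at 120180687, with 79.2%, 72.7% and 100% in STD and 42.6%, 75% and 56% in ENR, and there the groups overlapped. At 120170407, singled out after its values were seen, STD replicate 3 (31.6%) and ENR replicate 3 (27.8%) were both far below the other libraries, which lay between 61.4% and 88.8%. The exon sites also lie within the annotated gene Gm38642. The 1 kb tile with the 3 exon sites averaged 83.5% in STD and 63.8% in ENR, and the tile with the 4 intronic sites 89.4% and 77.9%. Neither tile passed the limma test (unadjusted p = 0.0292 for the first, adjusted p = 1.00), and 0.00% of all tiles did. Of the 46 tiles that hold member sites, 4 had an unadjusted limma p under 0.05, beside 3.98% of all tiles. The groups did not overlap in 5 of the 46, beside 8.86%, and ENR was lower in 3 of these 5. None of the 46 differed by over 25 points, beside 0.460% of all tiles.

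**Figure D3:**
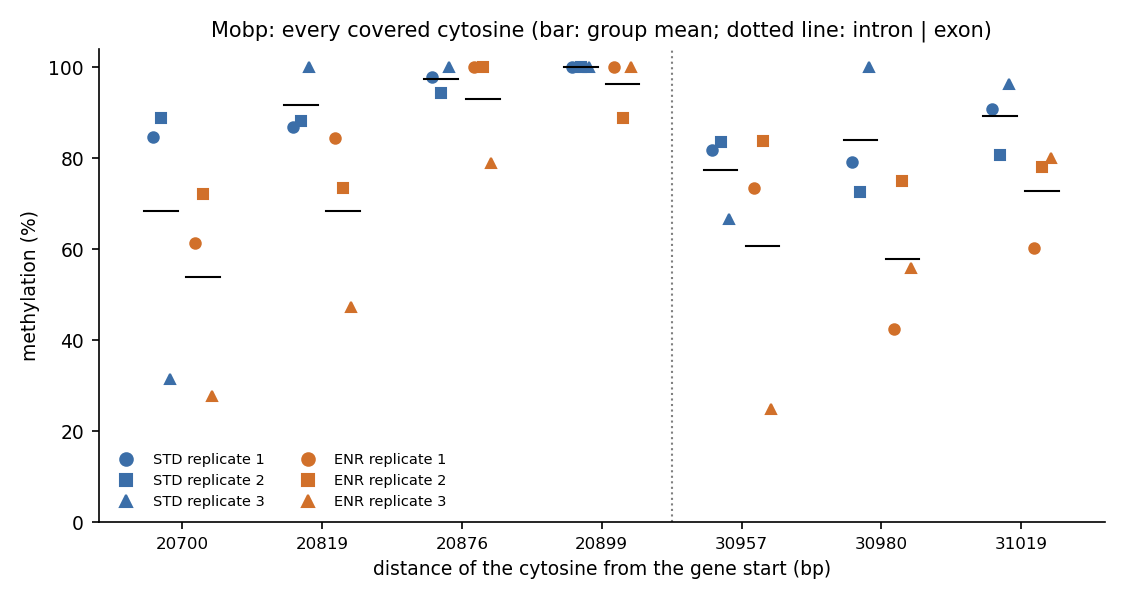
Methylation (%) at the 7 covered cytosines of Mobp in every library, placed by distance from the gene start (bp), with black bars for group means and a dotted line between the intronic and the exonic sites. The ENR bar is below the STD bar at all 7 sites, and ENR replicate 3 is the lowest library at 4 of them.

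Mbp codes for myelin basic protein, which holds the inner faces of the myelin membrane together. The annotation gives it (ENSMUSG00000041607.17, chr18:82475146-82585637, plus strand) 16 transcripts. Of these, 4 begin at the first start, from which the longer golli proteins are made, and 11 begin between 82554470 and 82554580, at the inner starts that give the classic myelin proteins. No site lay within 1 kb of the inner starts, and the nearest was 3674 bp away, so the table says nothing of methylation there. The remaining transcript, Mbp-214, begins at 82563262, and the 3 sites within 1 kb of it averaged 54.1%, 47.9% and 49.6% in STD and 72.6%, 65.6% and 34.8% in ENR, with overlap. At the first start, 54 sites averaged 4.48% in STD and 4.52% in ENR.

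Over its 113 sites the mean of Mbp was 19.3%, 18.7% and 16.6% in STD and 17.6%, 18.05% and 12.1% in ENR. The groups overlapped, with ENR replicate 3 the lowest, and the difference was -2.30 points (SE 1.94, 95% interval -6.99 to 2.40; exact p = 0.4). Without ENR replicate 3 it was -0.379 points. Along the gene the sites fell into 18 runs of neighbours at most 300 bp apart, and the mean of a run ranged from 4.26% to 85.8%. ENR was lower in 10 runs and higher in 8. In 2 of the 18 runs, both intronic, the groups did not overlap, and they went in opposite directions. The share was not computed for runs over the table, and among 1 kb tiles it was 8.86%.

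One of these runs, 4 sites from 82512881 to 82512953, was at 99.1%, 94.4% and 90.8% in STD and 80.9%, 79.1% and 70.4% in ENR, a difference of -17.9 points. As a 1 kb tile it had an unadjusted limma p of 0.00268 and an adjusted p of 1.00. Its first site, 82512881, had the largest difference of all 692 sites, -42.2 points, with 98.3%, 100% and 68.6% in STD and 73.3%, 67.1% and 0% in ENR. The groups overlapped there, and without ENR replicate 3 the difference was -18.8 points. The other run, 2 sites at 82508686 and 82508725, was at 8.33%, 0% and 0% in STD and 20.1%, 21.7% and 24% in ENR, a difference of 19.2 points. Both runs were picked out after their values were seen.

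**Figure D4:**
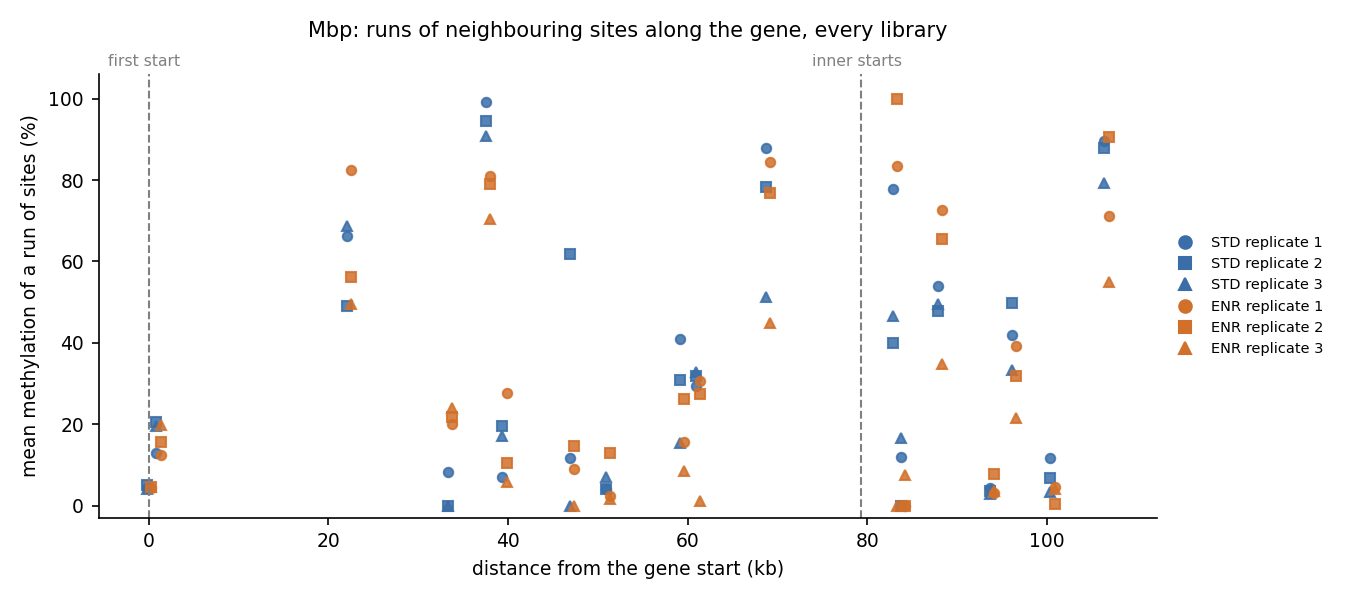
Mean methylation (%) of the 18 runs of neighbouring sites in Mbp in every library, against distance from the gene start (kb), with STD in blue, ENR in orange and dashed lines at the first and the inner transcription starts. The run at the first start lies near 4% in all libraries, runs in the introns range from near 0% to near 100%, and no run lies at the inner starts.

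Mog codes for myelin oligodendrocyte glycoprotein, on the outer surface of the sheath. All 8 sites (ENSMUSG00000076439.12, chr17:37010743-37023398, minus strand) lay in 1 coding exon. Their mean was 90.9%, 92.3% and 74.6% in STD and 88.1%, 73.4% and 85.1% in ENR, with STD replicate 3 and ENR replicate 2 low, and the difference was -3.72 points (SE 6.11, 95% interval -18.5 to 11.04; exact p = 0.5). One CpG of the exon, at a CCGG, was read on both strands. On the plus strand, at 37020682, it was 78.8%, 100% and 63.6% in STD and 71.0%, 36.6% and 29.6% in ENR, a difference of -35.1 points. On the minus strand, at 37020683, it was 97.8%, 98.1% and 69.2% against 90.2%, 84.5% and 100%, a difference of 3.17 points. The 2 strands of this CpG thus gave differences of opposite sign, and on each strand the groups overlapped.

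Mag codes for myelin-associated glycoprotein, which sits next to the axon. Its gene mean (ENSMUSG00000036634.15, chr7:30899176-30914873, minus strand) was 74.0%, 75.4% and 67.2% in STD and 81.6%, 77.7% and 66.2% in ENR. The difference was 2.98 points (SE 4.79, 95% interval -8.59 to 14.5; exact p = 0.6). The 9 sites at the far end, in a coding exon, averaged 86.7% and 87.5%, and the 2 sites just upstream of the gene start averaged 48.1% and 56.7%. A lone coding site at 30909247, singled out after its values were seen, stood at 4.26%, 3.08% and 0% in STD and 10.7%, 9.09% and 10.7% in ENR, and at 30901801 all ENR libraries were at 100%, against 90%, 93.4% and 76.6%. The plus strand of the latter CpG, at 30901800, was at 95.2%, 98.4% and 100% in STD and 96.2%, 85.7% and 100% in ENR, lower by 3.91 points with overlap. At 30909247 and 30901801 ENR was above STD without overlap, with unadjusted limma p-values under the limit and adjusted p-values of 0.852. Of all genes with at least 10 sites, Gm26518, D2hgdh and Rian had gene means most like those of Mag over the 6 libraries (Pearson r 0.994, 0.994 and 0.994), but 639 of 17837 genes had an r over 0.9 with it.

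Cnp codes for an enzyme of myelin that keeps channels of cytoplasm open within the sheath. The gene (ENSMUSG00000006782.16, chr11:100574904-100591729, plus strand) had 25 CpG-dense sites 113 to 274 bp past its start, which averaged 1.36% ± 0.361 in STD and 1.67% ± 1.15 in ENR. The other 6 sites, 1167 to 1299 bp past the start, varied far more between mice, with 46.3%, 45.2% and 15.2% in STD and 4.23%, 41.7% and 28.0% in ENR. The last of them, 100576203, was at 27.7%, 6.25% and 23.8% in STD and at 0% in all ENR libraries (limma, unadjusted p = 0.0192, Benjamini-Hochberg adjusted p = 0.852). Over the gene the difference was -1.86 points (SE 2.23, 95% interval -7.26 to 3.53; exact p = 0.5), with -0.162 points without ENR replicate 1 and -3.99 points without STD replicate 3.

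Sox10 is a factor needed throughout the lineage, which binds enhancers of many myelin genes. Its 3 runs of sites (ENSMUSG00000033006.10, chr15:79154908-79165240, minus strand) had very different levels. The 8 sites between positions -939 and -816 from the gene start averaged 51.3% ± 15.7 in STD and 49.96% ± 1.05 in ENR, and all lie within the annotated gene Gm10863. The 19 sites 997 to 1475 bp past the start averaged 3.66% and 2.94%. The 6 sites in a coding exon stood at 2.38%, 38.7% and 18.3% in STD and 21.5%, 40.2% and 29.9% in ENR. In that exon the cytosine 79159256 was at 0%, 20.8% and 32.4% in STD and 49.1%, 50% and 40% in ENR, a difference of 28.6 points without overlap (limma, unadjusted p = 0.102, Benjamini-Hochberg adjusted p = 0.852). The lowest p in Sox10 was at 79163812, in the intron, with 8.06%, 7.14% and 7.41% in STD and 2.38%, 0% and 0% in ENR, a difference of -6.74 points without overlap (limma, unadjusted p = 0.0223, Benjamini-Hochberg adjusted p = 0.852). Over the gene the difference was 1.22 points (SE 2.48, 95% interval -4.76 to 7.21; exact p = 0.8).

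Olig1 and Olig2, neighbouring genes for factors that set up the lineage and drive maturation, were unmethylated over nearly all of the sequence read. Every one of the 35 sites of Olig1 (ENSMUSG00000046160.6, chr16:91269772-91271933, plus strand) and the 67 sites of Olig2 (ENSMUSG00000039830.9, chr16:91225457-91228677, plus strand) had a mean under 10%. The value was 0% in all 6 libraries at 19 sites of Olig1 and 31 of Olig2. The gene mean of Olig1 was 1.76%, 1.41% and 0.159% in STD and 0.714%, 1.25% and 2.97% in ENR, a difference of 0.537 points (95% interval -1.20 to 2.28; exact p = 0.6). For Olig2 it was 1.68%, 1.28% and 1.36% against 1.40%, 0.359% and 2.43%, a difference of -0.0461 points (95% interval -1.40 to 1.30; exact p = 1). The lowest p in Olig1 was at 91269756, with 0% in all STD libraries and 16.7%, 0% and 14.3% in ENR. In Olig2 it was at 91227704, with 17.7%, 15.2% and 0% in STD and 0% in all ENR libraries, while the largest difference without overlap was at 91225968, with 2.07%, 2.47% and 0% in STD and 5.43%, 4.35% and 6.34% in ENR. None of these sites passed the test. The 1 kb tile at the start of Olig1 (91269001 to 91270000, 5 sites) averaged 1.83% in STD and 4.29% in ENR, higher in ENR without overlap. Its unadjusted limma p was 0.0235, and it did not pass the test either. In the Olig2 stretch printed above, 140 of 156 values were 0% and the highest was 21.6%.

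Nkx6-2, also called Gtx, codes for a homeodomain factor of mature oligodendrocytes. Its gene mean (ENSMUSG00000041309.17, chr7:139579376-139582797, minus strand) was 3.49%, 2.76% and 3.07% in STD and 2.73%, 2.54% and 2.29% in ENR. The groups did not overlap, and the difference was -0.584 points (SE 0.376, 95% interval -1.49 to 0.326; exact p = 0.1). With quantile normalization it was -0.288 points, with centred libraries -0.0822 points, and without the sites of the upstream 1 kb 0.0289 points. The 30 upstream sites averaged 7.05%, 6.32% and 5.60% in STD and 3.25%, 4.18% and 3.91% in ENR. In the stretch printed above, 5 sites averaged 22.6%, 23.5% and 30.8% in STD and 12.6%, 20.3% and 7.5% in ENR. One of them, 139583710, was at 19.5%, 35.3% and 38.5% in STD and 8.70%, 0% and 0% in ENR (difference -28.2 points; limma, unadjusted p = 0.0201, Benjamini-Hochberg adjusted p = 0.852). Another, 139583698, was at 26.8%, 35.3% and 76.9% in STD and 8.70%, 30.8% and 20.8% in ENR, with overlap, and its difference of -26.2 points was -10.96 points without STD replicate 3.

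Within the body of Nkx6-2 the introns went the other way, with 0.596%, 0.436% and 0.117% in STD and 1.52%, 1.45% and 2.24% in ENR over 22 sites. At 139582135, in coding sequence, all ENR libraries were at 0% and STD was at 12.7%, 18% and 8.82%.

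Nkx2-2 codes for a homeodomain factor that times the maturation of precursors. It was the best covered gene (ENSMUSG00000027434.11, chr2:147177546-147194243, minus strand), but 228 of its 256 sites also lie in the window of another gene, among them the antisense gene Nkx2-2os. Its mean was 6.61%, 7.30% and 5.19% in STD and 7.17%, 6.90% and 4.64% in ENR, a difference of -0.129 points (SE 0.929, 95% interval -2.38 to 2.12; exact p = 0.9). Methylation was low near the start (71 sites, 1.44% in STD and 2.08% in ENR) and in coding exons (56 sites, 1.99% and 2.50%). The 181 CpG-dense sites, singled out after their values were seen, averaged 2.61% in STD and 3.52% in ENR, higher in ENR without overlap. The 75 others averaged 15.4% and 12.8%, with overlap. The share without overlap was not computed for such sets over all genes. Methylation differed between the parts of the gene. It was higher in exons annotated as untranslated, where 35 sites averaged 24.1%, 24.4% and 17.8% in STD and 20.1%, 19.6% and 11.5% in ENR.

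The largest site difference in Nkx2-2, -32.0 points, lay in the untranslated sequence at 147183350. It was at 57.8%, 58.8% and 57.1% in STD and 9.09%, 48.6% and 20% in ENR, without overlap (limma, unadjusted p = 0.0797, Benjamini-Hochberg adjusted p = 0.852). Nearby, 147183175 was at 18.9%, 16.7% and 16.7% in STD and 3.85%, 0% and 0% in ENR (limma, unadjusted p = 0.00783, Benjamini-Hochberg adjusted p = 0.852). The minus strand of the same CpG was at 65%, 64.3% and 31.0% in STD and 62.5%, 63.3% and 57.6% in ENR, higher by 7.70 points with overlap, so the strands went opposite ways. 

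In the same untranslated sequence of Nkx2-2 the strands of several CpGs did not carry the same level. Of 117 CpGs of the 10 genes with both strands covered, 5 had a mean strand difference over 25 points, 4 of them in this run and the other the CpG of Mog described above, and 0.836% of all CpGs covered on both strands did (1108 of 132547). Among CpGs with a mean of 20% to 80%, 5 of 8 did in the 10 genes and 1007 of 11772 in the table. Over the 4 CpGs, from 147183158 to 147183215, the plus strand averaged 37.8%, 14.6% and 26.6% in STD and 15.4%, 14.7% and 4.76% in ENR. The minus strand averaged 79.0%, 71.2% and 52.9% in STD and 83.4%, 80.5% and 56.99% in ENR. The direction of the strand difference is a description, since these CpGs were chosen for its size, and on neither strand were the groups apart. Other CpGs of the run had closer strands, with means of 8.08% on the plus and 6.05% on the minus strand at 147183040, 16.8% and 22.6% at 147183155, and 8.37% and 29.1% at 147183228. The CpG at 147183158, with 9.52% to 48.8% on the plus strand and 84.2% to 100% on the minus strand, was the one of the 117 whose strands differed by over 25 points in the same direction in every library, and 0.252% of all CpGs covered on both strands did so (334 of 132547), or 2.83% of those with a mean of 20% to 80%, where it was 1 of 8 CpGs of the 10 genes.

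**Figure D5:**
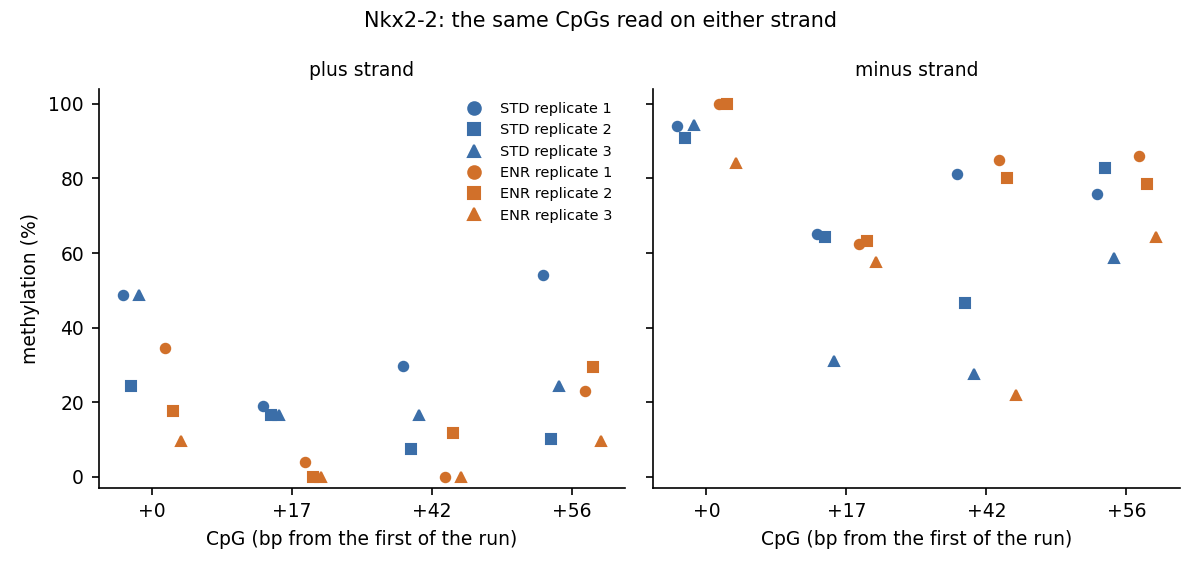
Methylation (%) of the same 4 CpGs in Nkx2-2 read on the plus strand (left) and the minus strand (right) in every library, placed by distance (bp) from the first CpG. Plus-strand values lie between 0% and 54.1% and minus-strand values between 21.9% and 100%, and the minus strand averages 26.3 to 68.0 points above the plus strand in each library.

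Other genes of the lineage were described in the same way. Of these, 31 genes with at least 3 sites were used. ENR was lower at 23 and higher at 8 of the 31, in a table in which 57.6% of the genes were lower. The median difference was -0.87 points beside -0.19 points over all genes. None passed the limma test, and the groups did not overlap at 3, which is to be read against the 8.46% of all genes. Myrf, a factor that directs myelin gene expression, had 17.6%, 25.3% and 40.6% in STD and 16.6%, 11.8% and 16.4% in ENR over 4 sites. Enpp2, which makes lysophosphatidic acid, had 11.3%, 11.1% and 8.60% against 8.41%, 8.11% and 6.02% over 21 sites. Mal, a proteolipid of the myelin membrane, was higher in ENR, with 6.16%, 6.43% and 6.28% against 7.91%, 8.37% and 6.51%.

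Among 7 precursor genes, 6 were lower, Cspg4 among them, and Pdgfra was higher, with a median of -1.63 points. The medians were -1.23 points for 5 maturation genes, -0.38 points for 10 genes of the myelin membrane and its junctions, and -0.87 points for 9 genes of lipid synthesis and metabolism. Marker genes of other cells in the tissue gave medians of -0.30 points for neurons (7 of 9 lower), -2.60 points for astrocytes (8 of 9 lower), -1.49 points for microglia (7 of 9 lower) and 0.15 points for endothelium (2 of 4 lower). These counts are to be read against the 57.6% of all genes that were lower in ENR. None of these marker genes passed the limma test. The part of cell composition in the values of the 10 genes was not tested.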

How the data were processed

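RRBS libraries from the dentate gyrus of 3 ENR and 3 STD mice were used. The authors trimmed the reads, cut 2 further bases from reads with adapter, aligned them to mm10 with Bismark and kept cytosines with at least 10 reads in every library with methylKit. The submitters' processing notes name Trim Galore 0.4.0, cutadapt 1.8.1, Bismark 0.16.1 and methylKit 1.5.2. The values used here are the percent of methylated reads per cytosine and library. They come without read numbers, so precision per site could not be computed from them and a test on reads could not be run on them. The sequencing reads, which the paper also made available, were not used. No value was missing and 0 columns were left unused.

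Sites were annotated with GENCODE M21, and a gene mean is the plain mean over its sites. Sequence came from RefSeq's GRCm38 genome. Sites, genes and 1 kb tiles with at least 3 sites were fitted over the whole table with limma 3.58.1 in R 4.3.3 (eBayes with trend, percent scale, Benjamini-Hochberg adjustment, limit 0.05, and for sites and tiles also 25 points). Site values per gene were named by fixed rules (the largest difference without overlap, the lowest p, and up to 3 differences over 25 points), except where stated. The members and lists were chosen with earlier results of these data known. On simulated tables the site fit returned the direction of shifts but called no shifted site where libraries varied as they do here, so the absence of site calls carries little information. Same-numbered mice were not paired (correlations of deviations 0.0602, 0.0348 and 0.135). Each limma p-value sets a group difference against the spread between these mice, with variances moderated over the whole table. The ENR mice shared an enclosure, so that spread does not cover differences between enclosures.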

Additional observations from a re-analysis of the deposited data

How the results depend on the processing

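No member site, gene or tile passed the limma test under any alternative run, including the fit with the replicate number as a replicate block (0 calls). The count of 7 sites with a difference over 25 points depended on the setting. It was 12 to 19 with each replicate left out in turn (2.60% to 3.42% of all sites, beside 1.94% with all libraries), 16 at a limit of 20 points (3.74% of all sites), 1 at a limit of 40 points (0.244%), 24 with group medians (3.07%) and 3 when the groups also had to be apart (0.810%). The mean difference over the 10 genes was -3.41 to -0.779 points with each replicate left out, and 0.0810 points within 1 kb of the gene starts, where 7 genes, without Mobp, Mog and Mag, had at least 3 sites.

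The sign of several gene differences was not stable, and the cause was not tested. Within 1 kb of the start the difference was 0.0442 points for Mbp, 0.309 for Cnp, -0.318 for Sox10, 0.277 for Olig2 and 0.644 for Nkx2-2. With medians over sites it was 4.41 for Mog and -0.239 for Sox10. With quantile normalization it was 0.457 for Olig2 and 0.318 for Nkx2-2, and with centred libraries 0.456 and 0.372. Without sites in other genes Nkx2-2 was at 1.44, and without the upstream 1 kb Nkx6-2 was at 0.0289. With each replicate left out, the ranges were -3.37 to -0.379 for Mbp, -3.99 to -0.162 for Cnp, -9.38 to 0.693 for Mog, -0.233 to 7.46 for Mag, -0.781 to 3.23 for Sox10, -0.126 to 1.00 for Olig1, -0.563 to 0.472 for Olig2, and -0.718 to 0.669 for Nkx2-2. Mobp ranged from -19.9 to -8.73 and was lower in ENR under every alternative run.

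The depth per site is unknown, and Mobp and Mog rest on 7 and 8 sites. The same-numbered correlations were not all above 0.1, so the block is given as an alternative only.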
